A study of Mus musculus with 4 samples.

Results

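The complement components and receptors described here are 9 genes, chosen by name, of 33696 measured in leukocytes of mouse pancreatic carcinomas. They are the 3 chains of C1q (C1qa, C1qb and C1qc), complement component 4B (C4b), complement component 3 (C3), complement factor B (Cfb), properdin (Cfp) and the receptors for the anaphylatoxins C3a and C5a (C3ar1 and C5ar1). All 9 had UMIs in each of the 4 libraries, and the other 43 genes of a 52-gene complement list are given by counts. The tumours came from a KPC line, taken from a pancreatic tumour of a genetically engineered mouse with Pdx1-Cre, which was grown under the skin of syngeneic male C57BL/6NHsd mice aged 8 to 10 weeks. Live CD45+ cells were sorted on day 14. Mice of 1 group had no treatment. A second group received ADU-S100, an agonist of STING, by intratumoral injection (2 µg, once), another the agonist antibody 4H8 against the lymphotoxin-β receptor (anti-LTβR; 4 intraperitoneal doses), and the last both agents (combination). 10 tumours were pooled per group, so that each group is 1 library of 1 tumour line outside the pancreas, and no difference between groups could be tested.

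The libraries held 8730, 15404, 14634 and 16322 cells as deposited, at median depths of 4712, 3187, 3730.5 and 2157.5 unique molecular identifiers (UMIs) per cell, in the order untreated, ADU-S100, then anti-LTβR, then combination. Sets of 4 values below keep that order, and sets of 3 ratios to untreated leave out the first. Pairs of libraries shared 34 to 83 barcodes. A level is the UMIs of a gene summed over the cells of a type in a library and scaled to 1000000 UMIs (CPM). Intervals in brackets are exact at 95% and cover counting error only, not the spread between mice. Cell types were clustered without any gene of the complement list, and are written "-like" because they rest on marker genes. Levels are compared between cell types and libraries for a single gene, not between genes. Fewer cells of a type and less RNA per cell cannot be told apart where UMIs are summed over all cells.

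Complement is a cascade of proteins that tags targets for uptake and draws in leukocytes. C1q binds antibody complexes or damaged surfaces and starts the classical pathway, which cleaves C4. The alternative pathway amplifies deposited C3 with factor B and is stabilised by properdin, and the released fragments C3a and C5a act through receptors on myeloid cells. Most complement in plasma is made by the liver, whereas C1q comes mainly from macrophages and properdin from myeloid cells, and C1q-expressing macrophages are known from many solid tumours.

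All 9 genes lie on the minus strand in GENCODE M21 (GRCm38). The C1q chains are neighbours, with C1qa at chr4:136895917-136898803, C1qc at chr4:136889804-136893065 and C1qb at chr4:136880129-136886187. C4b lies at chr17:34728380-34743882, Cfb at chr17:34856374-34862518 and C3 at chr17:57203970-57228136. Cfp lies at chrX:20925454-20931555, C3ar1 at chr6:122847138-122856161 and C5ar1 at chr7:16246743-16259540. The C4b transcript is 96.1% identical to that of its paralog C4a, and Cfb overlaps the protein-coding gene Gm20547 on the same strand, so the levels of C4b and Cfb are uncertain to the extent that the counting split shared reads.

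The upstream sequences of C1qb, C3 and Cfp are shown because these genes led in 3 different types among those drawn in the plot of levels. Each is the 250 bases before the RefSeq start (GRCm38.p6, minus strand), at chr4:136886201-136886450, chr17:57228137-57228386 and chrX:20931556-20931805. Capitals mark a match, on the other strand, to AGGAAGT, the core bound by PU.1 and related ETS factors of myeloid cells.
C1qb: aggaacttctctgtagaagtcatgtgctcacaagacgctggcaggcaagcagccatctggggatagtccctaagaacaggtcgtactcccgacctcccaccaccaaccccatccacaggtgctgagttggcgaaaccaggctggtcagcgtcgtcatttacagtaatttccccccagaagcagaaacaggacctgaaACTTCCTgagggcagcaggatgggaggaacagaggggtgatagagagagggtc
C3: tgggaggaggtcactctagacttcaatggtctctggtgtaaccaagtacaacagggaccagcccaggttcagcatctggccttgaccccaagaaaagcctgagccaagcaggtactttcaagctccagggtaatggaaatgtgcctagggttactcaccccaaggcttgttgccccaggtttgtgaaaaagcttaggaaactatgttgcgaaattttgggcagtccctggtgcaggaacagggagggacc
Cfp: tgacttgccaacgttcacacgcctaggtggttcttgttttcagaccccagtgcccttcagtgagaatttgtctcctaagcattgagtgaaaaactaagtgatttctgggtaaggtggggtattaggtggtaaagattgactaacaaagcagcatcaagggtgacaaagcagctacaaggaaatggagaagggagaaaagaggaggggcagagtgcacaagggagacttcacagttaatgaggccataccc
AGGAAGT was chosen after the sequences had been seen and was searched on both strands. It began at base −53 of C1qb, at −195 of C1qc and at −190 and −72 of C5ar1, counted from the start, and these letters were not in the windows of C3, Cfp and C3ar1. Of 32851 RefSeq promoters, 7.69% held them. RefSeq windows were matched for 6 of the 9 genes, C1qa, C4b and Cfb having no entry. A match describes the letters and not a bound site.

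**Figure D1:**
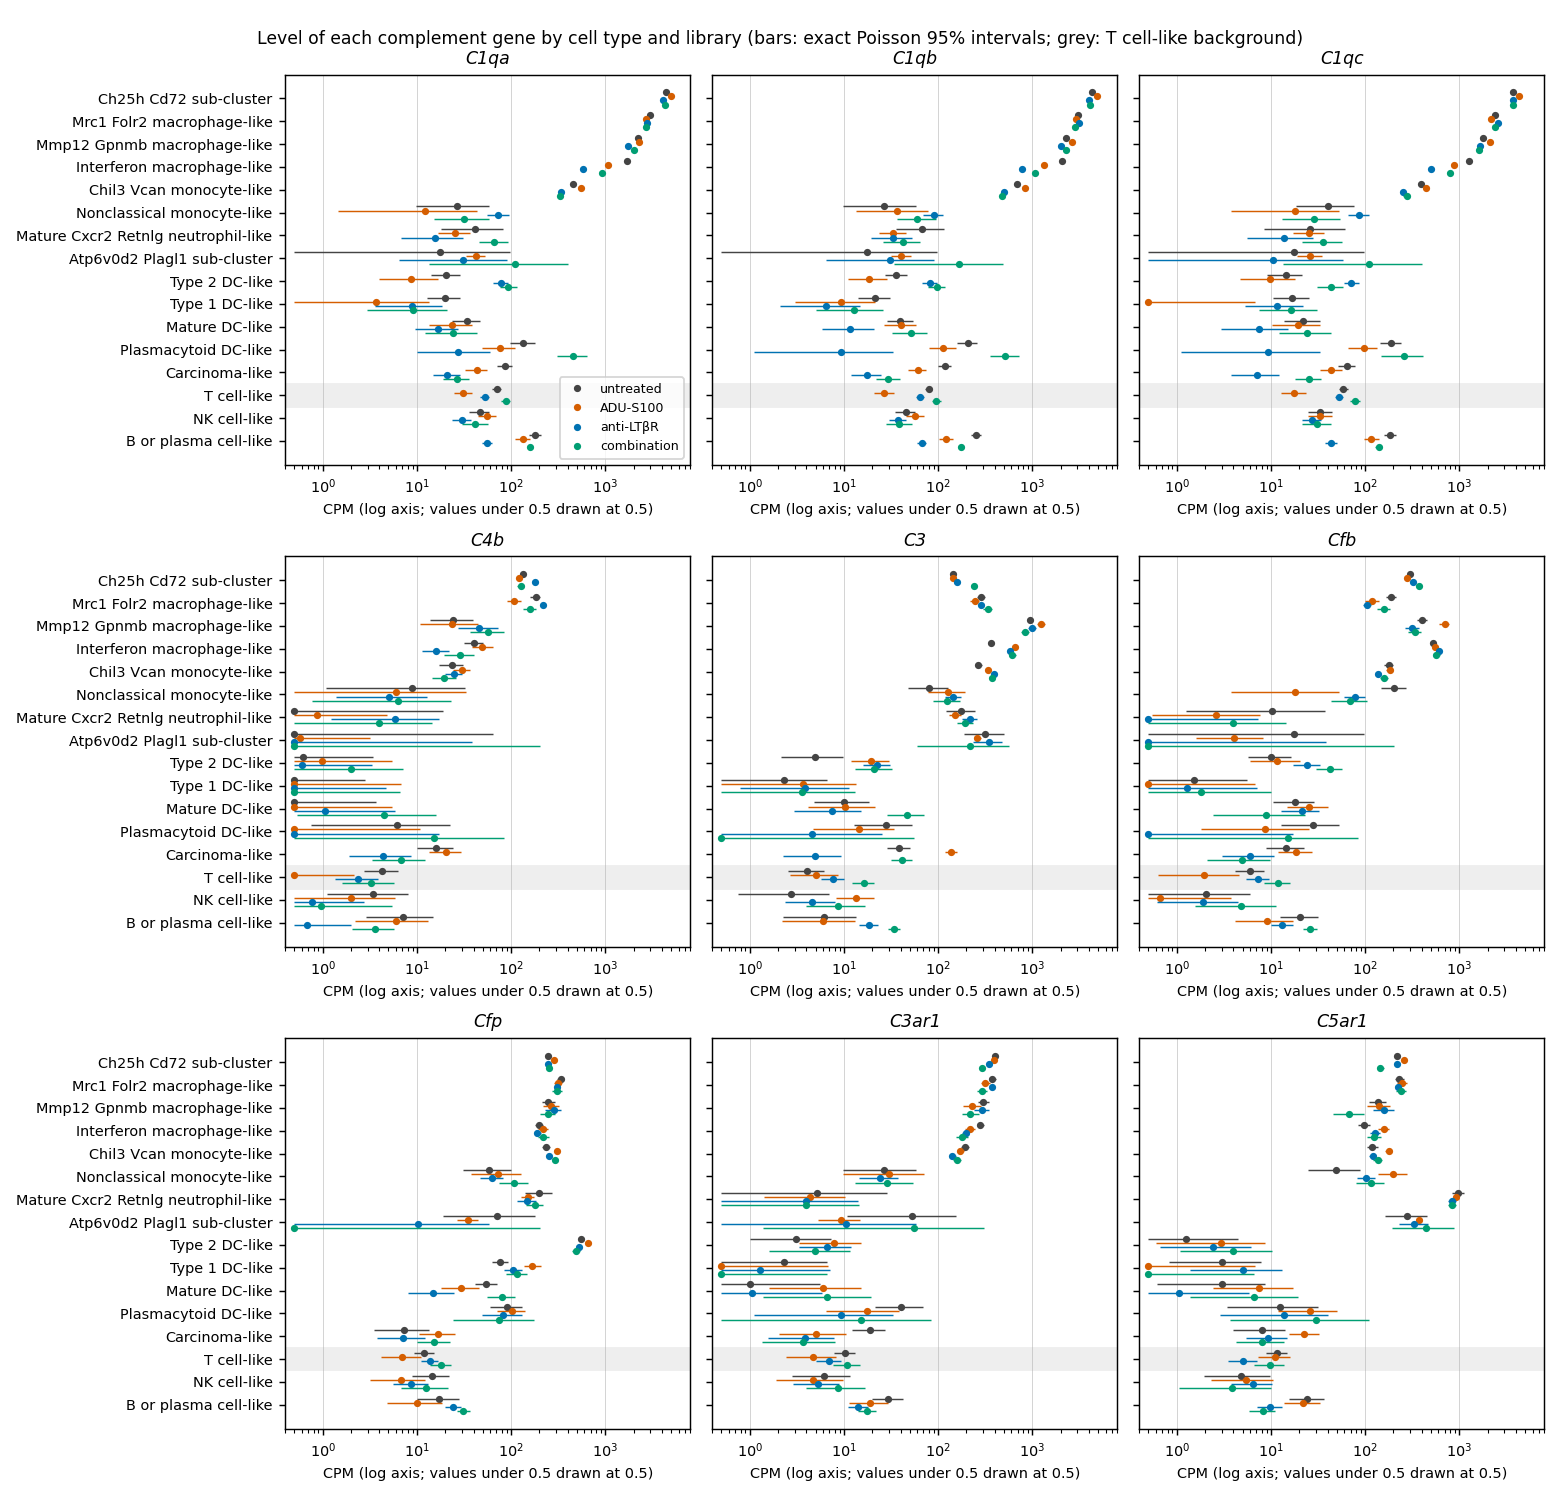
Level of each complement gene (CPM, log axis) in each cell type, with 1 point per library and bars for exact Poisson 95% intervals. The grey band marks T cell-like cells, taken as the background for C1q and as a comparison for the other genes. Among the types drawn, the C1q chains were highest in the Ch25h Cd72 sub-cluster, C3 in Mmp12 Gpnmb macrophage-like cells, Cfp in type 2 DC-like cells and C5ar1 in mature Cxcr2 Retnlg neutrophil-like cells in all 4 libraries. Mmp12 Gpnmb macrophage-like cells are named after their marker list.

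C1q, the recognition molecule of the classical pathway, was found mostly in macrophages. C1qa stood at 2408, 1888, 1462 and 1718 CPM in macrophage- and monocyte-like cells as a whole, which held 88.4, 86.6, 86.4 and 83.3% of its UMIs. T cells are not known to make C1q, and T cell-like cells, at 70.1, 31.3, 52.7 and 87.9 CPM, were taken as the background. Free RNA itself was not measured, and B or plasma cell-like cells, at 181, 133, 55.9 and 159 CPM, lay above this level beyond counting error in 3 of 4 libraries. Neutrophil-like cells at 68.1, 39.5, 38.3 and 70.0 CPM and dendritic cell-like cells at 46.4, 19.3, 68.4 and 82.9 CPM lay in the same range. Here and below, a type lies above T cell-like cells where the intervals of their levels are separate. For genes other than C1q, T cell-like cells are a comparison only, and whether they make these genes was not tested. Of 16 cell types compared, the same 6 lay above T cell-like cells in all 4 libraries for each chain, and all 6 were macrophage- or monocyte-like.

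Among macrophages C1q was graded. The highest level was in a sub-cluster of the macrophage and monocyte class led by Ch25h, Mmp2 and Olfml3, which passed on the markers Cx3cr1, Ms4a7, Cd72 and Ccl12. Its marker list had been drawn up for MHC class II macrophages, but no MHC class II gene was among those markers or its 10 leading genes, so it is called the Ch25h Cd72 sub-cluster. It had 4453, 5016, 4151 and 4291 CPM of C1qa. Mrc1 Folr2 macrophage-like cells, which carry markers of resident macrophages, followed at 2980.0, 2735, 2771 and 2680.5 CPM. Mmp12 Gpnmb macrophage-like cells had 2207, 2309, 1733 and 2044 CPM, and the intervals of these 3 types were separate in all 4 libraries. Interferon macrophage-like cells, named for interferon-response genes, had 1701, 1079, 586 and 928 CPM. Chil3 Vcan monocyte-like cells, which carry markers of recruited inflammatory monocytes, had 459.6, 554, 339.6 and 334 CPM. Nonclassical monocyte-like cells, on 43, 25, 177 and 147 cells, had 26.9, 12.1, 73.1 and 31.7 CPM. This value was higher than that of T cell-like cells only in the anti-LTβR library, with overlapping intervals.

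The 3 chains form 1 protein and had the same 3 leading types in the same order among those drawn in the plot of levels, except that intervals of C1qc in Mrc1 Folr2 and Mmp12 Gpnmb macrophage-like cells were separate in only 3 libraries. After each cell was thinned to 1000 UMIs, 40.8, 32.4, 28 and 32.7% of macrophage- and monocyte-like cells had a UMI of every chain (55.5, 46.6, 41.5 and 41.5% before thinning). In T cell-like cells the thinned share was 0.611, 0, 0.703 and 0.999%. The balance of the chains differed between types. C1qb UMIs per C1qa UMI were 0.96, 0.97, 0.97 and 0.95 in the Ch25h Cd72 sub-cluster and 1.49, 1.49, 1.47 and 1.43 in Chil3 Vcan monocyte-like cells.

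C4b, whose protein is cleaved by the classical pathway, was at a low level. It stood at 182, 108, 217 and 159 CPM in Mrc1 Folr2 macrophage-like cells and at 133, 120.1, 180.2 and 127 CPM in the Ch25h Cd72 sub-cluster. The former were first in 3 of 4 libraries, with separate intervals in 2. Chil3 Vcan monocyte-like cells had 23.5, 30.2, 24.6 and 19.6 CPM, against 4.25, 0.391, 2.37 and 3.23 CPM in T cell-like cells.

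C3, on which all pathways meet, was highest in Mmp12 Gpnmb macrophage-like cells, at 944, 1244, 989 and 840.3 CPM. These were only 68, 32, 50 and 70 cells, and a single cell held 8.92, 16.5, 7.79 and 8.11% of their C3 UMIs. They are named after their marker list, of which the type passed on Cd36, Lpl, Ctsk and Atp6v0d2 when doublets were kept. Mmp12 was among the leading genes of an unnamed sub-cluster of 156, 225, 241 and 248 cells. Gpnmb was among those of another, led by Cd200, of 68, 430, 265 and 247 cells. Without the 3 highest cells the level was 733, 795, 794 and 661 CPM, above that of the other types described. Interferon macrophage-like cells were next at 364, 657, 586 and 616 CPM, followed by Chil3 Vcan monocyte-like cells at 266, 339, 388 and 369.6 CPM. The Ch25h Cd72 sub-cluster, which led for C1q, had 143, 145, 159.6 and 239 CPM of C3.

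Neutrophils also held C3. Neutrophil-like cells had 239, 212, 241 and 210.0 CPM against 4.07, 5.08, 7.7 and 16.2 CPM in T cell-like cells. After thinning, 16.7, 16.5, 17.5 and 17.5% of neutrophil-like cells had a C3 UMI (26.8, 28.3, 24.9 and 18.9% before, at median depths of 1832, 2111, 1624 and 1034 UMIs). In T cell-like cells the thinned share was 0.306, 0.541, 0.216 and 1.08%, at median depths of 3400, 3770, 2888 and 1675 UMIs. Thinning left out 80, 734, 174 and 598 neutrophil-like cells as too shallow.

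Cfb, the protease of the alternative pathway convertase, stood above T cell-like cells in all libraries in the same 6 macrophage- and monocyte-like types as C1q. Interferon macrophage-like cells were first in 3 of 4 libraries, at 521, 549.9, 602 and 572 CPM. Mmp12 Gpnmb macrophage-like cells, at 406, 696, 316 and 336 CPM, were first in the ADU-S100 library. Mrc1 Folr2 macrophage-like cells, high in C4b, had 189, 119, 105 and 158 CPM of Cfb.

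Cfp, which stabilises that convertase, had the broadest distribution, with 11 of 16 types above T cell-like cells in all libraries. Among the types drawn in the plot of levels it was highest in type 2 DC-like cells, at 557, 657, 526 and 491 CPM. These were 3 sub-clusters, of which 1 was led by the interferon-response genes Cxcl10, Cxcl11 and Ifit1. Type 1 DC-like cells had 77, 169, 105 and 116 CPM and mature DC-like cells 54.8, 29.7, 14.8 and 79.9 CPM. Type 2 DC-like cells held 72.7, 57.4, 69.2 and 65.9% of the Cfp UMIs of dendritic cell-like cells. The 4 macrophage types above and Chil3 Vcan monocyte-like cells lay between 191 and 337 CPM, so that Cfp was more even across macrophages than C1q, C3 or C4b. An unnamed sub-cluster of the macrophage and monocyte class led by Retnla, with the type 2 DC markers Cd209a and Cd209d among its 10 leading genes, had 319.9, 644, 519 and 576 CPM on 75, 24, 215 and 255 cells, above type 2 DC-like cells in the combination library.

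C3ar1, the C3a receptor, had most of its UMIs in macrophage- and monocyte-like cells. The Ch25h Cd72 sub-cluster had 404, 395, 347 and 293 CPM and Mrc1 Folr2 macrophage-like cells 378, 318, 370.3 and 291 CPM, with separate intervals in 1 library only. An unnamed sub-cluster led by Cd200, Gpnmb and Serpinb2 had 509.9, 447, 391 and 347 CPM of C3ar1 and 605, 293, 293 and 288 CPM of C1qa, so that a high level of the receptor did not always come with high C1q. Neutrophil-like cells, at 17.3, 7.94, 9.57 and 11.2 CPM, were near the 10.3, 4.69, 6.96 and 10.9 CPM of T cell-like cells. Mast cell- or basophil-like cells had 301, 63.2, 477 and 149.9 CPM, resting on only 19, 3, 10 and 4 C3ar1 UMIs.

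C5ar1, the C5a receptor, was the member led by neutrophils. Mature Cxcr2 Retnlg neutrophil-like cells had 974, 931, 833 and 838 CPM. Most of them formed a sub-cluster with Hp of the monocyte list and none of its own list among its 10 leading genes. A neutrophil sub-cluster led by Atp6v0d2, Plagl1 and Gramd1c had 282, 371, 333 and 441 CPM on 32, 807, 58 and 17 cells. It passed on Ccl3, Tnf, Cstb, Hilpda, Vegfa and Cd274 of a list for Ccl3 activated neutrophils, but its 10 leading genes held none of these and 2 markers of the Mmp12 Gpnmb macrophage list, Atp6v0d2 and Gpnmb. After thinning, 50.7, 43.3, 46.3 and 48.5% of neutrophil-like cells had a C5ar1 UMI (62.6, 59.3, 58.8 and 48.3% before), against 0.764, 1.08, 0.486 and 0.461% of T cell-like cells. In each library at least 1 unnamed neutrophil sub-cluster had a higher value than these mature cells, with overlapping intervals. Mast cell- or basophil-like cells had 822, 716, 477 and 1049.6 CPM, on only 30, 17, 12 and 21 cells. Mrc1 Folr2 macrophage-like cells, the highest of the named macrophage types by the median over libraries, had 231, 247, 221 and 242 CPM. Macrophages and the few mast cell- or basophil-like cells thus held both anaphylatoxin receptors, and neutrophil-like cells held C5ar1 with C3ar1 near the T cell-like level.

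**Figure D2:**
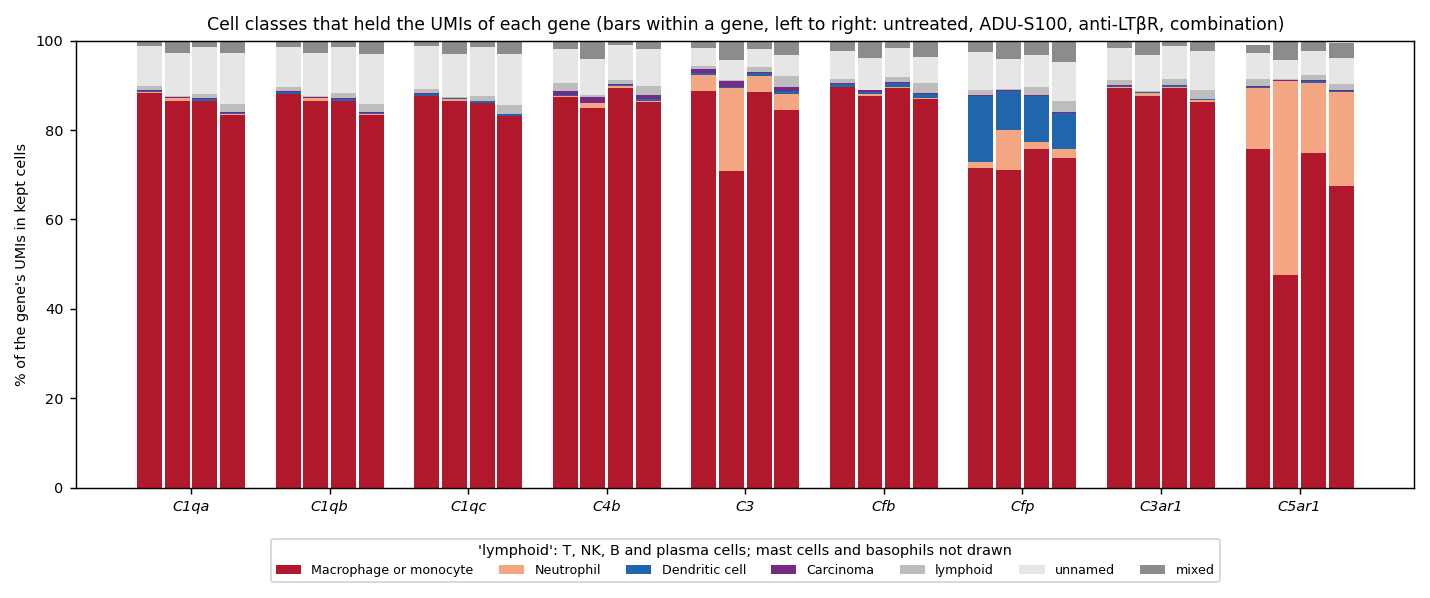
Share (%) of each gene's UMIs in kept cells by cell class, with 1 stacked bar per library. Macrophage- and monocyte-like cells held 83.1 to 89.6% of the UMIs of C1q, C4b, Cfb and C3ar1, and neutrophil-like cells held 43.3% of C5ar1 UMIs in the ADU-S100 library.

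The cells that held the UMIs differed most between libraries for C5ar1. Macrophage- and monocyte-like cells held 75.8, 47.6, 74.8 and 67.4% of its UMIs and neutrophil-like cells 13.6, 43.3, 15.7 and 21%. Neutrophil-like cells numbered 492, 5295, 978 and 1289. They held 3.54, 18.6, 3.79 and 3.57% of C3 UMIs and 1.46, 9.01, 1.49 and 2.1% of Cfp UMIs, with the highest shares in the ADU-S100 library. Cell numbers after a sort need not follow those in the tumour.

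A cluster called carcinoma-like held 154, 223, 202 and 274 cells, although the sort was for CD45. Krt8 was at 379, 294, 351 and 404 CPM there and Epcam at 0, 1.46, 0 and 1.23 CPM. The fibroblast gene Col1a1 was at 782, 628, 785 and 378 CPM, so that the cluster may cover more than 1 cell type. C3 was at 38.4, 136, 4.95 and 41.1 CPM, and a single cell held 77.4% of its UMIs in the untreated library and 88.7% in the ADU-S100 library. The 16, 14, 13 and 13 cells with a fibroblast gene UMI and no keratin UMI held 83, 89.8, 44.4 and 50.7% of the C3 UMIs. Cells with a keratin UMI had 7.11, 11.4, 3.5 and 20.1 CPM, against the T cell-like 4.07, 5.08, 7.7 and 16.2 CPM. C4b in the cluster was at 16, 20.5, 4.4 and 6.75 CPM and C1qa at 86.3, 43.1, 20.9 and 26.4 CPM. No member had an interval separate from that of T cell-like cells, on the higher side, in the cluster in all 4 libraries.

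Treatment was compared first in macrophage- and monocyte-like cells, of which there were 3746, 5162, 7030 and 7989. A gene was tested with at least 200 UMIs over both libraries and called past 1.5-fold in either direction. The share of all genes called is the background, and the comparisons with untreated mice share 1 library. Of 10150 genes, 14.6% were called with ADU-S100, against 6.18% of 10211 with anti-LTβR and 6.77% of 9922 with the combination. The median log2 ratio over all genes was −0.19, −0.04 and −0.09, and that over the 9 members −0.27, −0.27 and −0.42.

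C1q was lowest in the anti-LTβR library. C1qa had ratios of 0.784 (0.776 to 0.792), 0.607 (0.60 to 0.614) and 0.713 (0.705 to 0.722) to the untreated level. The log2 ratios were −0.35, −0.72 and −0.49 for C1qa, −0.27, −0.63 and −0.45 for C1qb and −0.32, −0.60 and −0.42 for C1qc. Only the anti-LTβR values were called, as 3 of 9 members, and C1qc lay just past the call. Scaled to the median of all genes, the C1qa values became −0.16, −0.68 and −0.40.

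The mix of macrophages moved with C1q. The Ch25h Cd72 sub-cluster, the highest in C1q, made up 23.5, 14, 8.86 and 13.1% of the class and held 56.6, 49.5, 37.6 and 39.8% of its C1qa UMIs. With each sub-cluster given its untreated share, the C1qa log2 ratios were 0.07, −0.25 and −0.15, and no member was called in these comparisons. In the Ch25h Cd72 sub-cluster itself the C1qa ratios were 1.13 (1.11 to 1.14), 0.932 (0.916 to 0.949) and 0.964 (0.947 to 0.981). The lower C1qa of the class with ADU-S100 was thus seen as measured and not with the untreated mix.

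**Figure D3:**
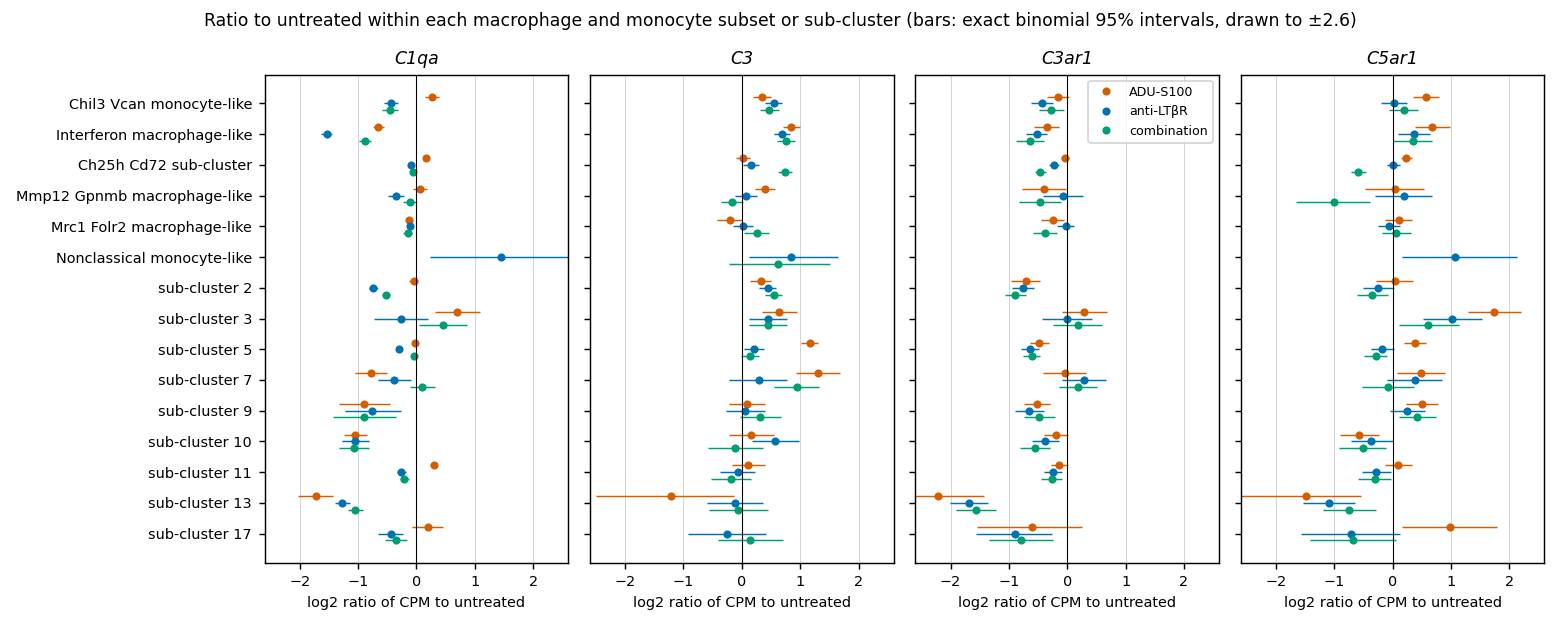
Log2 ratio of CPM to untreated within each macrophage or monocyte subset or sub-cluster for C1qa, C3, C3ar1 and C5ar1, with 1 point per treated library and bars for exact binomial 95% intervals. With anti-LTβR, C1qa was lower in every unit drawn except Nonclassical monocyte-like cells, and the lowest value was −1.54 in Interferon macrophage-like cells.

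The size of the difference was not shared by all sub-clusters. C1qa was below untreated in 8 of 15, 15 of 16 and 13 of 15 subsets or sub-clusters with at least 50 UMIs. The interval left out 1 in 6, 14 and 11 of these, and on the higher side in 5, 1 and 1. Here and below, all subsets of a comparison come from the same libraries and are not repeats. Interferon macrophage-like cells had C1qa log2 ratios of −0.66, −1.54 and −0.87, with anti-LTβR at a ratio of 0.345 (0.323 to 0.367). In the same cells C3 had ratios of 1.8 (1.63 to 2.0), 1.61 (1.46 to 1.77) and 1.69 (1.52 to 1.88). Hence C1qa was lower and C3 higher in the Interferon macrophage-like cells of every treated library. Mrc1 Folr2 macrophage-like cells had C1qa log2 ratios of −0.12, −0.10 and −0.15, and Chil3 Vcan monocyte-like cells 0.27, −0.44 and −0.46, where the sign differed between treatments.

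C4b was at 72, 42.4, 59.7 and 43.7 CPM in the class. It was the only 1 of 9 members called with ADU-S100, at a ratio of 0.588 (0.551 to 0.629), where 14.6% of all genes were called. With the combination it was called lower at 0.607 (0.564 to 0.653), as 1 of 2 members, against 6.77% of all genes. Scaled to the median of all genes, the log2 ratios of C4b for ADU-S100 and the combination were −0.57, short of the call, and −0.63. With the untreated mix the log2 ratios of −0.76, −0.27 and −0.72 became −0.27, 0.17 and −0.20, so that the sign for anti-LTβR changed and both calls were lost. Within Mrc1 Folr2 macrophage-like cells the ratios were 0.593 (0.477 to 0.735), 1.19 (1.04 to 1.38) and 0.872 (0.711 to 1.07).

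C3 was higher in each treated library, at 209, 251, 269.6 and 278 CPM, without being called. The log2 ratios were 0.26, 0.36 and 0.41, and 0.42, 0.31 and 0.46 with the untreated mix. C3 was higher in 12 of 14, 13 of 16 and 12 of 16 subsets or sub-clusters. The interval left out 1 in 8, 9 and 8 of these, and on the lower side in 1, 0 and 0. In the Ch25h Cd72 sub-cluster the ratios were 1.02 (0.936 to 1.11), 1.12 (1.02 to 1.23) and 1.68 (1.54 to 1.82), so that only the combination was past 1.5-fold there.

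The alternative pathway genes differed little in the class. Cfb was at 255, 204, 230.4 and 245 CPM and Cfp at 226, 246, 247 and 255 CPM, and neither was called. Scaled to the median of all genes, the sign of Cfb with the combination changed from −0.05 to 0.03 on the log2 scale. Inside subsets Cfb was less even. Mrc1 Folr2 macrophage-like cells had Cfb ratios of 0.628 (0.509 to 0.772), 0.556 (0.475 to 0.653) and 0.834 (0.681 to 1.02), and Interferon macrophage-like cells 1.06 (0.956 to 1.17), 1.16 (1.06 to 1.26) and 1.1 (0.99 to 1.22).

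**Figure D4:**
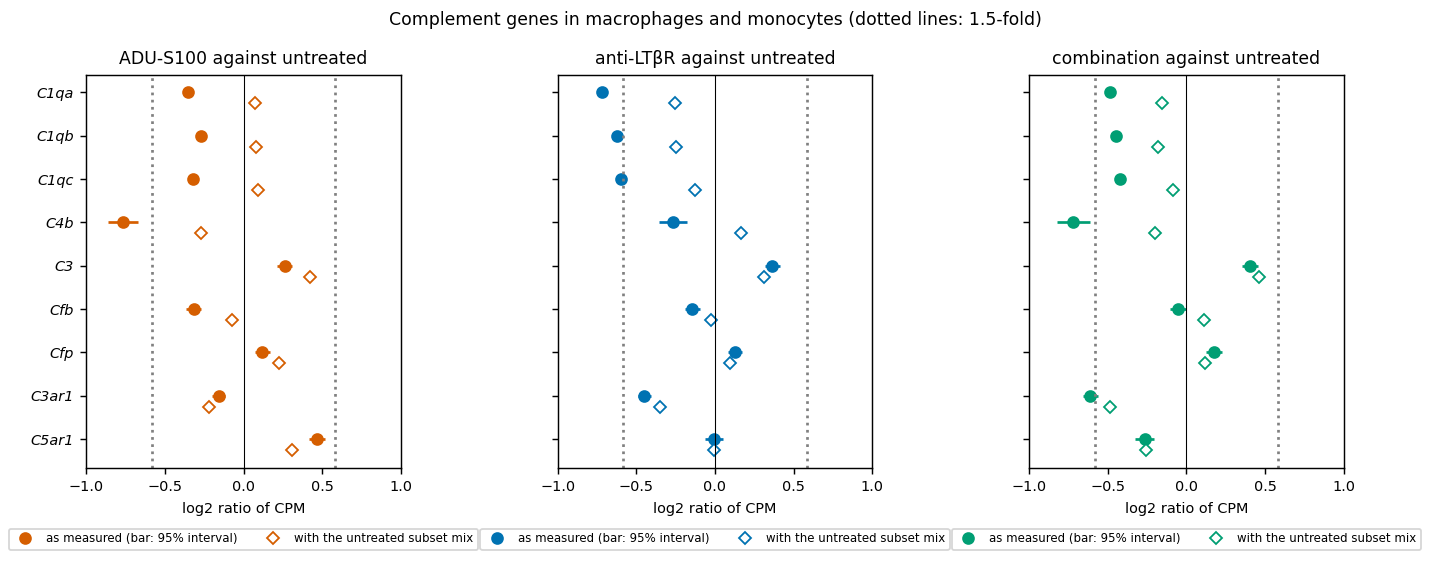
Log2 ratio of CPM to untreated in macrophage- and monocyte-like cells for each member and treated library, as measured (filled, with exact 95% interval) and with each sub-cluster given its untreated share (open); dotted lines mark 1.5-fold. With anti-LTβR C1qa moved from −0.72 to −0.25, and with the combination C3ar1 moved from −0.61 to −0.49.

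The receptors differed from each other. C3ar1 was at 320.2, 287, 235 and 209.7 CPM and was called lower with the combination, at a ratio of 0.655 (0.633 to 0.677). It was lower in 14 of 15, 14 of 15 and 13 of 15 subsets or sub-clusters. The interval left out 1 in 8, 11 and 13 of these, and on the higher side in 0, 0 and 0. The log2 ratios of −0.16, −0.45 and −0.61 became −0.22, −0.35 and −0.49 with the untreated mix. Scaled to the median of all genes, the ADU-S100 value changed sign to 0.03 and the combination value became −0.52, short of the call.

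C5ar1 in the same cells was at 167, 231, 166 and 139 CPM, highest with ADU-S100. That ratio was 1.38 (1.33 to 1.43), not called, and C5ar1 was higher in 13 of 15 subsets or sub-clusters. The interval left out 1 in 9 of these, and on the lower side in 2. Scaled to the median of all genes, the log2 ratio of 0.47 became 0.66, past 1.5-fold, and with the untreated mix it became 0.31. The summed level of 12 neutrophil markers in macrophage- and monocyte-like cells was 872, 2041, 1595 and 1640.5 CPM, also highest with ADU-S100, and its part in the C5ar1 values was not tested.

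The combination was also set against each agent alone. Against ADU-S100, 8.6% of 10150 genes were called. C5ar1 was the only member among them, at a ratio of 0.601 (0.579 to 0.625), and was lower in 14 of 16 subsets or sub-clusters. The interval left out 1 in 12 of these, and on the higher side in 0. With the untreated mix the log2 ratio of C5ar1 moved from −0.73 to −0.56, just short of the 1.5-fold limit. Against anti-LTβR, 2.25% of 10190 genes and none of the 9 members were called, with C1qa at a ratio of 1.17 (1.16 to 1.19).

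In neutrophil-like cells 28.1% of 4367 genes were called with ADU-S100, 11.8% of 1886 with anti-LTβR, and 8.28% of 1751 with the combination. C5ar1 was at 857, 677, 726 and 777 CPM, and the ratios against untreated neutrophil-like cells were 0.791 (0.735 to 0.851), 0.848 (0.775 to 0.927) and 0.907 (0.829 to 0.994). In mature Cxcr2 Retnlg neutrophil-like cells alone they were 0.955 (0.818 to 1.12), 0.855 (0.719 to 1.02) and 0.86 (0.723 to 1.03). For C3 the ratios were 0.888 (0.774 to 1.02), 1.01 (0.856 to 1.19) and 0.88 (0.739 to 1.05), all with intervals that held 1. C1qa and C1qc were called lower with ADU-S100, as 2 of 6 members tested, at levels near those of T cell-like cells. None of 3 members tested was called in the other comparisons.

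In dendritic cell-like cells 7.12% of 5685 genes were called with ADU-S100, 5.45% of 6127 with anti-LTβR, and 5.38% of 5376 with the combination. Cfp was at 264, 343, 277 and 305 CPM, and in type 2 DC-like cells its ratios were 1.18 (1.07 to 1.3), 0.945 (0.86 to 1.04) and 0.882 (0.789 to 0.986). Of 4 members tested, C1qa, C1qb and C1qc were called lower with ADU-S100, none was called with anti-LTβR, and C1qa and C1qb were called higher with the combination. C1qa in T cell-like cells was also lower with ADU-S100 and higher with the combination than in untreated mice. The dendritic cell-like levels of C1qa lay below the T cell-like levels in both of these libraries and in untreated mice.

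Of the other 43 complement genes, 13 reached 200 UMIs over the 4 libraries in macrophage- and monocyte-like cells, 6 in neutrophil-like cells, 6 in dendritic cell-like cells and 5 in the carcinoma-like cluster. C6, a component of the membrane attack complex, was at 11.7, 4.55, 19 and 9.83 CPM in macrophage- and monocyte-like cells and was among the 2 of 11 tested that were called lower with ADU-S100, where 14.6% of all genes were called in either direction. C6 and the lectin pathway gene Fcna were called higher with anti-LTβR, as 2 of 12, against 6.18% of all genes. Cd93, once described as a C1q receptor, was at 103, 149.7, 84.4 and 59.1 CPM and was the 1 of 11 called with the combination, against 6.77% of all genes. Itgam, a subunit of complement receptor 3, was at 624, 709.9, 604 and 480.0 CPM and was not called against untreated. In neutrophil-like cells Cd93, at 32.4, 70.4, 49.5 and 35 CPM, was called higher and Cr1l, a regulator of complement on cell surfaces, at 75.6, 45.7, 45.6 and 60.1 CPM, was called lower with ADU-S100, as 2 of 6, against 28.1% of all genes.

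The genes with the most similar patterns were sought among 9732 genes by Pearson's r of log2(CPM + 1) over 61 sums of a cell type in a library, which share libraries and depth. C1qa was nearest to Apoe (0.953), Trem2 (0.945) and Ms4a7 (0.945), and the same 3 genes were nearest to C1qb and C1qc. C4b was nearest to Myo7a (0.899), Apoe (0.891) and Stab1 (0.886), and C3 to Pla2g7 (0.939), Klra2 (0.914) and Tlr2 (0.894). Fcgr1 (0.905) and Ctsc (0.903) were among the 3 nearest to Cfb, and Lmo2 (0.894) and Nlrp1b (0.873) among those to Cfp. Msr1 (0.953) and Trem2 (0.952) were among the 3 nearest to C3ar1, and C5ar1 was nearest to Slc11a1 (0.942), Dmxl2 (0.934) and Cd14 (0.924). Apoe, Trem2, Ms4a7, Fcgr1 and Cd14 were also among the markers that named the cell types.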

How the data were processed

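Each treatment group gave 1 single-cell library of sorted live CD45+ cells. The deposited matrices hold UMI counts per gene and cell. The authors aligned reads with Cell Ranger to mm10; the submitters' processing notes and the methods name version 7.1.0 and the file headers 8.0.1, and the labels and methods name different 5′ kits. The features of the files number 33696, of which 31961 were found in GENCODE M21. No cell names of the authors were used, and another experiment of the study is not analysed here.

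Cells with 300 to 5000 genes and at most 6% mitochondrial UMIs were kept, as in the methods. The automatic doublet threshold marked 0, 0, 1 and 0 cells, so the 305, 949, 857 and 1066 cells with the highest scores were removed, which left 7524, 13444, 13223 and 14667. Leiden clusters (scanpy 1.11.5, resolution 1, 2000 variable genes, 30 components) were named from at least 3 fixed markers. Sub-clusters with 2 or more markers of another class among their 10 leading genes were taken out, a limit set after seeing the data. They held 1.01, 3.00, 1.48 and 2.37% of kept cells. Unnamed sub-clusters of a class stayed in its sums.

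Counts were summed per type and library and given as CPM with exact Poisson intervals. Ratios have exact binomial intervals and shares exact Clopper-Pearson intervals (scipy 1.17.1). With 1 library per group there is no test and no p-value. Genes with at least 200 UMIs over both libraries were called past 1.5-fold. On simulated counts of 10150 genes for ADU-S100 against untreated in macrophages and monocytes, 99.5% of 200 changed genes were called, 0.0603% of the others were called, and 95.3% of intervals held the true ratio. The simulation held counting error only, so these shares check the calculation and are not rates of false calls in real libraries. Shares were compared after thinning cells to 1000 UMIs, leaving out shallower cells. All 9 members were named; other complement genes were named with at least 200 UMIs; 3 genes outside the list with the highest correlation were named per member. The members and lists were chosen with earlier results of these data known.

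Alternatives covered doublets, clustering resolution, naming cells one by one, scaling, sub-cluster mix, background, thresholds and depth. Some genes and 1 macrophage subset are not reported here.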

Additional observations from a re-analysis of the deposited data

Results flagged for a closer look

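C1q had opposite directions in dendritic cell-like and in macrophage- and monocyte-like cells against untreated mice for 6 pairs of a chain and a treatment, each resting on 1 library per group, and the difference itself was not tested. In 4 of them both intervals left out a ratio of 1 and at least 1 of the values was past 1.5-fold. With anti-LTβR the log2 ratio of C1qa was 0.56 in dendritic cell-like cells against -0.72 in macrophage- and monocyte-like cells, and that of C1qc was 0.27 against -0.60. With the combination C1qa was at 0.84 against -0.49 and C1qb at 0.61 against -0.45. In the other pairs, C1qb with anti-LTβR and C1qc with the combination, the dendritic interval held 1. With each sub-cluster given its untreated share, C1qc with anti-LTβR was at -0.19 in dendritic cell-like cells against -0.13, no longer opposite, and C1qa with anti-LTβR at 0.10 against -0.25. The dendritic levels were at most 95.9 CPM, near the T cell-like level in the same libraries. The summed level of 15 macrophage or monocyte markers in dendritic cell-like cells was 940, 1211, 1450 and 1391 CPM, and its part in these values was not tested.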

How the results depend on the processing

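No direction of a called member reversed under any alternative run. Counts of members called that moved beyond 1.5 times are given against the counts in the report. With each sub-cluster given its untreated share, the counts were 0 for each agent and for both together against untreated and for the combination against ADU-S100 in macrophages and monocytes, and 1 for ADU-S100 in neutrophils. With a 2-fold call they were 0 in all 4 of these macrophage comparisons, for ADU-S100 in neutrophils and for the combination in dendritic cells. Thinned to 1000 UMIs, they were 0 for ADU-S100 and for the combination in macrophages and monocytes, 0 for ADU-S100 in neutrophils, and 1 for ADU-S100 and 0 for the combination in dendritic cells. At the doubled resolution and for the mean of per-cell fractions they were 1 for the combination in macrophages and monocytes, 1 for ADU-S100 in neutrophils and 1 for anti-LTβR in dendritic cells, and scaled by the median of ratios 1 for that macrophage comparison and 0 for ADU-S100 in neutrophils. With doublets kept they were 0 for ADU-S100 in neutrophils, and 0 for ADU-S100 and 3 for anti-LTβR in dendritic cells. With cells named one by one they were 4 and 3 for ADU-S100 and anti-LTβR in neutrophils, and 0 for ADU-S100 and the combination in dendritic cells; with all deposited cells, 4, 4 and 3 in neutrophils and 0, 1 and 0 in dendritic cells. With the T cell level subtracted they were 0 for ADU-S100 in neutrophils and 0 for ADU-S100 and the combination in dendritic cells, where the C1q levels, at or below the T cell level in at least 1 of the libraries compared, left no ratio to call. With no minimum of UMIs they were 5, 3 and 2 in neutrophils and 6, 4 and 6 in dendritic cells. With mixed cells put back, an alternative chosen after seeing the data, dendritic cells had 1 for anti-LTβR and 5 for the combination; leaving out 3 sub-clusters led by T or NK cell genes, also chosen then, moved no count. The cause was not tested.

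C1qa and C1qb with anti-LTβR lost the call only under the untreated sub-cluster mix among 12 alternatives, as did C5ar1 for the combination against ADU-S100, whereas C1qc with anti-LTβR kept it under 6, C3ar1 with the combination under 7, and C4b under 9 with ADU-S100 and under 10 with the combination. The 2-fold call is not among these 12, and with it all of these calls were lost. Scaled by the median of ratios, the 1 member called with ADU-S100 in macrophages and monocytes was C5ar1 in place of C4b. No library could be left out and no paired analysis was possible because each group had 1 library. Counting intervals say nothing of the spread between mice, and small types (Mmp12 Gpnmb macrophage-like and plasmacytoid DC-like cells) give values that a few cells can move.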

Other observations

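Outside the macrophages, plasmacytoid DC-like and B or plasma cell-like cells had C1qa above the T cell-like level in some libraries. Plasmacytoid DC-like cells, which make type I interferon, had 134, 75.8, 27.6 and 451 CPM of C1qa on 69, 62, 56 and 28 cells, and in the combination library a single cell held 53.3% of those UMIs. B or plasma cell-like cells had 181, 133, 55.9 and 159 CPM of C1qa, with ratios to the T cell-like level of 2.58 (2.15 to 3.09), 4.25 (3.19 to 5.67), 1.06 (0.897 to 1.25) and 1.81 (1.58 to 2.07).

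A sub-cluster of the macrophage and monocyte class led by Slpi, Timp1 and Dmkn had 7 of 11 Chil3 Vcan monocyte markers and was left unnamed, since another list led. It had 396, 276, 253 and 284 CPM of C3ar1 and 228, 322, 270.0 and 305 CPM of C5ar1, with C1qa at only 109, 58.4, 64.6 and 59 CPM, on 75, 415, 318 and 304 cells.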
